A study of Macaca mulatta with 161 samples.

Results

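The genes described are 10 that carry glucose into the cell and along glycolysis: the glucose carriers SLC2A1 and SLC2A3, the hexokinases HK1 and HK2, GPI, TPI1, ENO1 and PKM of the chain itself, and the lactate dehydrogenases LDHA and LDHB. They were chosen by name. No measured value entered the rule, but the choice was made with earlier results of these data known. All 10 have a row among the 16049 gene symbols of the table, and all 10 are among the 9781 genes with a mean of at least 1 FPKM (fragments mapped to a gene, per kilobase of its length and per unit of sequencing depth) over the 161 cells. Their levels were followed across the 4 stages of the series and set against NANOG, a transcription factor of the epiblast, and SOX17, a transcription factor of the primitive endoderm.

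The cells are single inner cells of rhesus monkey (Macaca mulatta) blastocysts, collected to follow naive and primed states of pluripotency. The embryos came from oocytes of hormone-treated females and were grown in HECM-9 medium with serum. PKH26, a dye of cell membranes, marked the outer cells, and unstained cells were taken as inner ones. There are 44 cells from early blastocysts (a small cavity, about embryonic day 5), 39 from middle blastocysts (about day 5.5), 52 from late blastocysts (fully expanded, about day 6) and 26 from hatching blastocysts (about day 7). All embryos shared this culture, and no treatment or genotype is named. The labels name no embryo or animal behind a cell, so a stage counts as 1 sample, cells are not replicates, and every difference given is a description without a test. An SD is the spread between cells.

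Glucose enters cells through facilitative carriers, is trapped by hexokinase as glucose 6-phosphate, and is broken down by the glycolytic chain to pyruvate. Lactate dehydrogenase interconverts pyruvate and lactate, and its A subunit is classically tied to lactate formation and its B subunit to lactate use. In mammalian embryos, pyruvate and lactate are the main fuels of cleavage, and glucose uptake and glycolysis increase around the blastocyst stage.

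Median depth was similar between stages. Reads recovered from the steps of the FPKM values had a median of 11338000 per early cell, 13034000 per middle cell, 11177000 per late cell and 11795000 per hatching cell, over a range of 3153000 to 30132000, all to the nearest 1000. Each of the 10 genes had at least 5 reads in every cell. One early cell, titled E9, stood apart from all other early cells when cells were clustered, with 5873 genes at 1 FPKM or more against a median of 7019.5 in its stage. It held 0.644 FPKM of HK2, 1.11 FPKM of GPI, 2.05 FPKM of TPI1 and 19.2 FPKM of LDHB, each the lowest early value. Early results are therefore also given without E9, an alternative chosen after seeing the data. Titles also number the cells within a stage, and cells of low and high numbers differed. Values within each range are therefore given where they change a result. In the early and in the hatching stage, most cells of high number had more reads than any cell of low number. Hatching cells had at most 12016000 reads in the low range and up to 20126000 in the high range. The part of depth in the differences between ranges was not tested. Trophectoderm markers, the genes of outer cells, were at 1 FPKM or more in at least 50% of cells for 8 of 16 in the early, 9 in the middle, 8 in the late and 10 in the hatching stage. Their summed log2 level ranged from 36 to 66.5 in early, 38.3 to 82.9 in middle, 36.6 to 100.2 in late and 42.3 to 70.7 in hatching cells, and CGA was at 0 in all early and middle cells. Epiblast markers passed the same bound for 11, 10, 11 and 12 of 15 in the same 4 stages.

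The genes together made up a median of 0.756% of a cell's summed FPKM in the early, 1.12% in the middle, 0.893% in the late and 0.696% in the hatching stage. This share is a proportion of the RNA measured in a cell, and the amount of RNA per cell was not measured. ENO1 was the highest of the 10 per length, with a median of 1873 FPKM over all 161 cells, and LDHB followed with 1039 FPKM. The hexokinases were the lowest, with medians of 107 FPKM for HK1 and 69.9 FPKM for HK2.

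**Figure D1:**
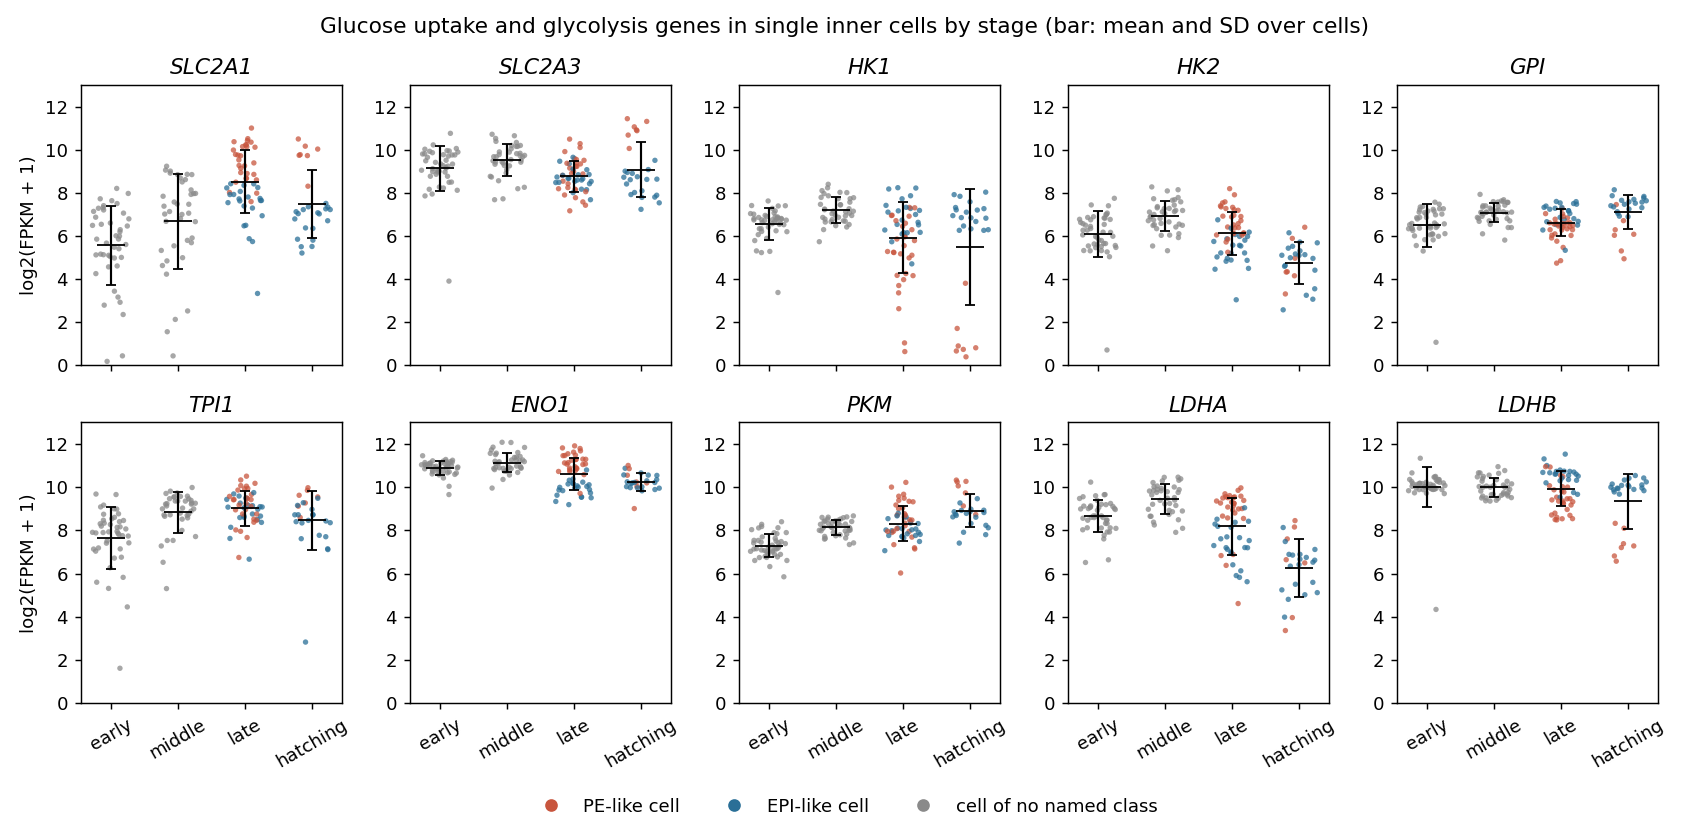
Level of each of the 10 genes in every cell (points, log2(FPKM + 1)) by stage, with the mean and SD over cells (bars) and colours for the cell classes named in late and hatching cells. SLC2A1 is highest in late cells at a mean of 8.52, LDHA is lowest in hatching cells at 6.25, and HK1 falls into separate groups of cells at the hatching stage.

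The glucose carriers followed different courses. SLC2A1, the carrier GLUT1, had a lowest, median and highest value of 0.141, 57 and 294 FPKM in early cells, 0.361, 139 and 601 FPKM in middle cells, 9.11, 351 and 2049.6 FPKM in late cells, and 36, 143 and 1442 FPKM in hatching cells. All 4 stages overlapped, but values under 1 FPKM occurred in early and middle cells alone, in 2 of 44 and 1 of 39 cells. The mean log2 level was 5.57 ± 1.84 in early, 6.67 ± 2.20 in middle, 8.52 ± 1.45 in late and 7.48 ± 1.57 in hatching cells (SD between cells). SLC2A3, the high-affinity carrier GLUT3, had 14, 607 and 1730.0 FPKM in early, 204, 813 and 1679 FPKM in middle, 143, 416 and 1437 FPKM in late, and 149.7, 425 and 2769 FPKM in hatching cells. Its stage means lay within 0.75 log2 units of each other, from 8.76 ± 0.72 in late to 9.51 ± 0.74 in middle cells. SLC2A3 has a near-identical relative, SLC2A14, in human. SLC2A14 has no row here, so reads of such a copy could not be told from those of SLC2A3.

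Both hexokinases, the enzymes that phosphorylate glucose, were highest in middle cells. HK1, the form that most tissues express, had a lowest, median and highest value of 9.43, 106 and 196 FPKM in early, 52.3, 141 and 336 FPKM in middle, 0.563, 73.8 and 301 FPKM in late, and 0.320, 107 and 261 FPKM in hatching cells. The late and hatching stages held cells with almost no HK1 beside cells above the early median. HK2, the form typical of muscle and of many tumours, had 0.644, 71.2 and 214 FPKM in early, 38.9, 127 and 309 FPKM in middle, 7.25, 68.2 and 292 FPKM in late, and 4.97, 30.6 and 83.8 FPKM in hatching cells. No hatching cell reached the middle median of HK2.

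GPI, which turns glucose 6-phosphate into fructose 6-phosphate, had the stage means closest together of the 10, from 6.49 ± 1.00 in early to 7.11 ± 0.79 in hatching cells. Its median was 92.3 FPKM (1.11 to 189) in early, 137 FPKM (55.1 to 243) in middle, 96.4 FPKM (25.8 to 193) in late and 165 FPKM (29.8 to 281) in hatching cells. TPI1, which interconverts the triose phosphates, had a median of 241 FPKM (2.05 to 821) in early, 560.0 FPKM (38.5 to 1013) in middle, 549 FPKM (100.5 to 1458) in late and 419.6 FPKM (6.08 to 1006) in hatching cells. The early median was the lowest for both genes, although every pair of stages overlapped.

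ENO1, the enolase of most tissues, was at high level in every cell. Its lowest, median and highest values were 807, 2003 and 2811 FPKM in early, 995, 2232 and 4335 FPKM in middle, 584, 1727 and 3862 FPKM in late, and 515, 1192 and 2059 FPKM in hatching cells. PKM, the pyruvate kinase gene whose splice forms the table does not separate, had 56.6, 146 and 337 FPKM in early, 161, 284 and 407 FPKM in middle, 64.1, 285 and 1194 FPKM in late, and 169, 459 and 1286 FPKM in hatching cells. PKM was the only one of the 10 whose stage means increased at each step, from 7.29 ± 0.54 in early and 8.14 ± 0.35 in middle to 8.32 ± 0.80 in late and 8.92 ± 0.76 in hatching cells.

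The 2 lactate dehydrogenase genes did not follow the same course over the stages. In mean log2 level, LDHA differed by -1.24 and LDHB by -0.07 late minus middle. Hatching minus late, LDHA differed by -1.94 and LDHB by -0.58. LDHA had a lowest, median and highest value of 90.3, 407 and 1205 FPKM in early, 239, 733 and 1412 FPKM in middle, 23.4, 369.7 and 1001 FPKM in late, and 9.25, 94.2 and 349 FPKM in hatching cells. Every hatching cell was under the early median of LDHA. LDHB had 19.2, 1083 and 2595 FPKM in early, 654, 1022 and 1979.7 FPKM in middle, 357, 1032 and 2962 FPKM in late, and 94.1, 985 and 1489 FPKM in hatching cells. Its medians lay close together, and its lowest values were in E9 and in hatching cells. TPI1, ENO1, PKM, LDHA and LDHB have processed copies in primate genomes, and how reads of such copies were counted is not given in the sources used here.

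A difference between neighbours in the order of the stage means exceeded the SD between cells in 4 of the 30 neighbouring pairs of the 10 genes. These were HK2 with early over hatching cells (1.33 against an SD of 1.02), PKM with middle over early cells (0.85 against 0.46), and LDHA with middle over early (0.75 against 0.72) and late over hatching cells (1.94 against 1.32). All other neighbours in the order differed by less than their spread.

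Middle minus early, 9 of the 10 genes had a difference above 0, with a median of 0.70 against 0.075 over all 9781 genes. The share of all genes above 0 was not taken. TPI1 at 1.17 and SLC2A1 at 1.11 were higher by 1 log2 unit (2-fold) or more, the size used here to call a difference, and none was lower by as much. Of all genes, 3.06% were called higher and 3.61% lower in this step. Without E9 the same 2 genes were called, TPI1 at 1.03 and SLC2A1 at 1.12. Neither was called among cells of high title number alone, where TPI1 differed by 0.53 and SLC2A1 by -0.32. SLC2A3 (-0.10) and HK2 (-0.01) were also below 0 there, and the remaining genes lay between 0.08 for LDHA and 0.53 for TPI1. In middle cells, SLC2A1 had a mean of 7.15 ± 1.88 in the 25 cells of low number and 5.31 ± 2.37 in the 12 of high number. The mean trophectoderm marker level differed between the same cells, at 3.60 and 2.74, and its part in the result was not tested. SLC2A1 and that marker level had an r of 0.28 over the 39 middle cells.

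Late minus middle, SLC2A1 was higher by 1.84, and HK1 at -1.28 and LDHA at -1.24 were lower. Of all genes, 3.95% were called higher and 5.82% lower. SLC2A1 was also higher within the low title numbers (1.58) and within the high ones (3.02). With the median over cells in place of the mean, neither HK1 (-0.93) nor LDHA (-0.99) was called. HK1 was at -0.67 and LDHA at -1.75 in cells of low number, against -1.66 and -0.50 in cells of high number.

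Hatching minus late, LDHA at -1.94, HK2 at -1.37 and SLC2A1 at -1.04 were lower, and none of the 10 was called higher. Of all genes, 9.87% were called lower and 7.26% higher. With median-of-ratios scaling SLC2A1 was at -0.87 and not called. PE-like cells, described next, made up 7 of 26 hatching and 29 of 52 late cells, and within the classes SLC2A1 had 0.30 in PE-like and -0.69 in EPI-like cells. LDHA and HK2 were lower within both ranges of title numbers, whereas SLC2A1 was at -0.41 within the low and -1.57 within the high numbers. HK1 had -0.45 over all cells, -2.56 within the low and 1.21 within the high numbers. The 7 PE-like hatching cells all have low numbers.

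Hatching minus early, SLC2A1 at 1.91 and PKM at 1.63 were higher, and LDHA at -2.43, HK2 at -1.33 and HK1 at -1.09 were lower. Of all genes, 11.3% were called higher and 16.2% lower. The same 5 genes were called without E9. With the median over cells in place of the mean, HK1 differed by 0.0077, and with median-of-ratios scaling it was at -0.94, so it was called under neither. Within the low title numbers HK1 was at -2.34, SLC2A1 at 2.80 and PKM at 2.27, against -0.13, 1.13 and 1.00 for the same genes within the high ones. SLC2A3 differed by -0.06, with 0.98 among cells of low number and -1.10 among cells of high number.

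**Figure D2:**
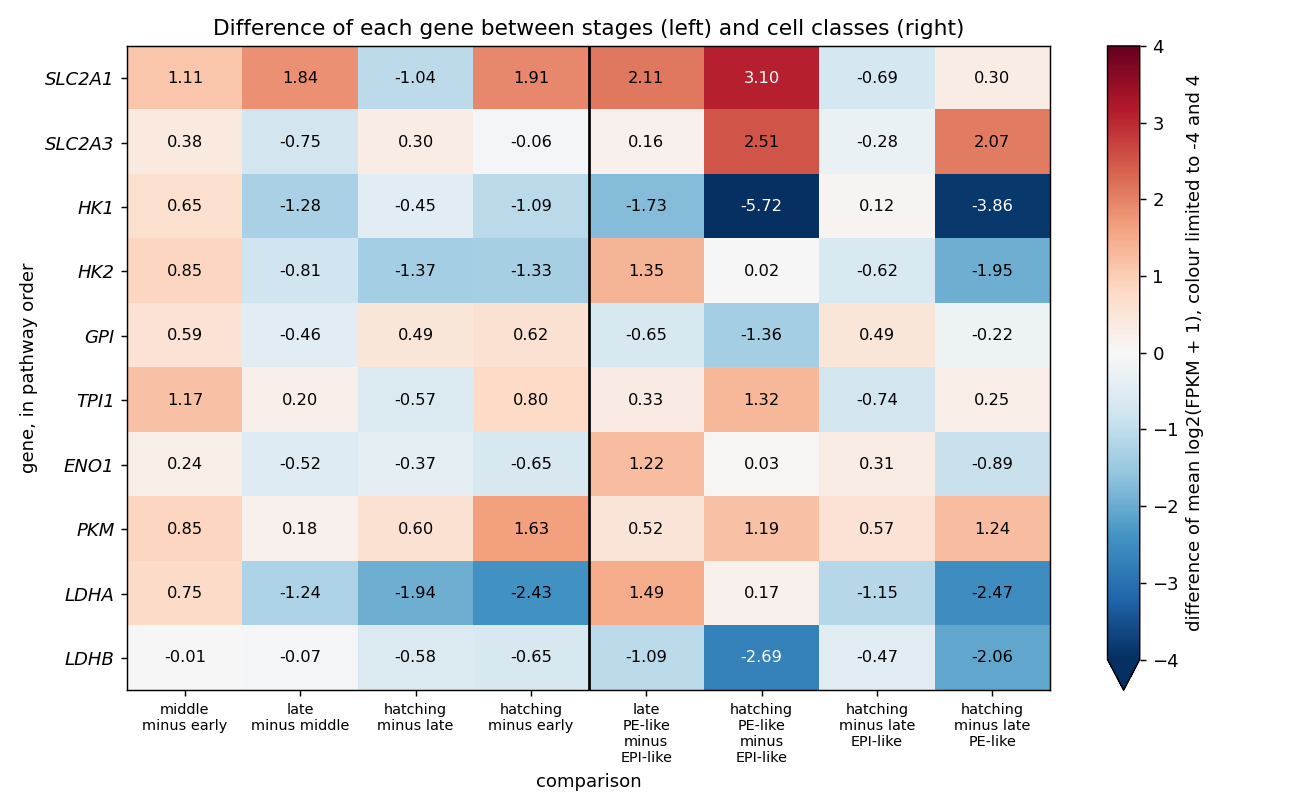
Difference of the mean log2(FPKM + 1) of each gene (rows, in pathway order) between stages (left of the line) and between cell classes (right of it), printed in each field and coloured red where the group named first is higher and blue where it is lower. SLC2A1 is higher in PE-like cells of both stages, HK1 and LDHB are lower there, and LDHA is lower in hatching cells of both classes than in late cells.

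Within the late and hatching stages, cells were clustered without the 10 genes, the pathway lists or the markers, and clusters were named from marker genes. In the late stage 29 cells were PE-like (primitive endoderm) and 23 EPI-like (epiblast), and in the hatching stage 7 were PE-like and 19 EPI-like. Early and middle clusters met no marker rule and stayed unnamed. SOX17 had a median of 58.0 FPKM in late PE-like and 0.199 FPKM in late EPI-like cells, and 279 FPKM in hatching PE-like and 0.173 FPKM in hatching EPI-like cells. NANOG had a median of 8.97 FPKM in late PE-like and 546 FPKM in late EPI-like cells. It reached 100 FPKM in 7 of the 29 late PE-like cells but stayed at 8.05 FPKM or less in all 7 hatching PE-like cells. The late classes are thus less far apart than the hatching ones. SOX17 was as low as 0.0675 FPKM among late PE-like cells. The summed log2 level of trophectoderm markers reached 100.2 in late PE-like cells, against 64.1 in late EPI-like cells. The detected genes differed as well, with a median of 5680 in hatching PE-like and 6940 in hatching EPI-like cells at a median of 9740000 and 13217000 reads.

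In late cells, PE-like minus EPI-like, SLC2A1 at 2.11, LDHA at 1.49, HK2 at 1.35 and ENO1 at 1.22 were higher, and HK1 at -1.73 and LDHB at -1.09 were lower. Of all genes, 8.58% were called higher and 9.03% lower. SLC2A1 had a lowest, median and highest value of 192, 736 and 2049.6 FPKM in PE-like cells, against 9.11, 199 and 342 FPKM in EPI-like cells. The median PE-like cell thus lay above the highest EPI-like cell. ENO1 had 838, 2253 and 3862 FPKM in PE-like cells, against 584, 1018 and 1781 FPKM in EPI-like cells. LDHB went the other way, with 357, 656 and 1980.0 FPKM in PE-like cells, against 739, 1556 and 2962 FPKM in EPI-like cells. HK1 spread widely in PE-like cells, at 0.563, 37.9 and 159 FPKM, against 25.2, 127 and 301 FPKM in EPI-like cells. Among cells of low title number alone, LDHA at 0.94 and LDHB at -0.70 missed the 2-fold size.

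In hatching cells, PE-like minus EPI-like, SLC2A1 at 3.10, SLC2A3 at 2.51, TPI1 at 1.32 and PKM at 1.19 were higher, and HK1 at -5.72, LDHB at -2.69 and GPI at -1.36 were lower. Of all genes, 14.2% were called higher and 33.7% lower, and the middle of all genes lay at -0.45. Scaling by the median of ratios put it at -0.15, and GPI was then at -0.76 and not called. HK1 and LDHB lay below and both carriers above that middle under either scaling. The part of depth and detected genes in these differences was not tested. SLC2A1 and SLC2A3 were higher without any overlap of cells, which holds for 1.41% of all genes, and HK1 and LDHB lower without overlap, which holds for 2% of all genes.

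HK1 was close to absent in the hatching PE-like cells. The 7 cells had 0.320, 0.593, 0.677, 0.765, 0.872, 2.29 and 13 FPKM, against 75.7 to 261 FPKM with a median of 122 in the 19 EPI-like cells. It reached 1 FPKM in 2 of the 7 PE-like cells (28.6%, Clopper-Pearson 95% interval 3.67% to 71.0%, which covers the counting of cells alone) and in all 19 EPI-like cells. HK2 was not called between the classes (0.02), with a lowest, median and highest value of 8.95, 19.3 and 83.8 FPKM in PE-like cells, against 4.97, 33.3 and 69.9 FPKM in EPI-like cells. HK1 and HK2 summed to a median of 29.9 FPKM (9.55 to 84.6) in PE-like and 155 FPKM (83.1 to 298) in EPI-like cells. HK3 and HKDC1, which also encode hexokinases and were chosen after their values were seen, reached 1 FPKM in no hatching PE-like cell.

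The carriers were high in the same 7 cells. SLC2A3 had 1064, 1934 and 2769 FPKM in PE-like cells, against 149.7, 389 and 726 FPKM in EPI-like cells, and SLC2A1 had 316, 871 and 1442 FPKM against 36, 129 and 181 FPKM. SLC2A1 and SLC2A3 summed to a median of 2780 FPKM (1936 to 4211) in PE-like and 433 FPKM (194 to 907) in EPI-like cells. LDHB had 94.1, 154 and 320.0 FPKM in PE-like cells, against 818, 1044 and 1489 FPKM in EPI-like cells. Within the low title numbers alone, which hold all 7 PE-like cells, HK1 differed by -6.42, SLC2A1 by 3.43, LDHB by -2.85, SLC2A3 by 2.68 and PKM by 0.93.

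**Figure D3:**
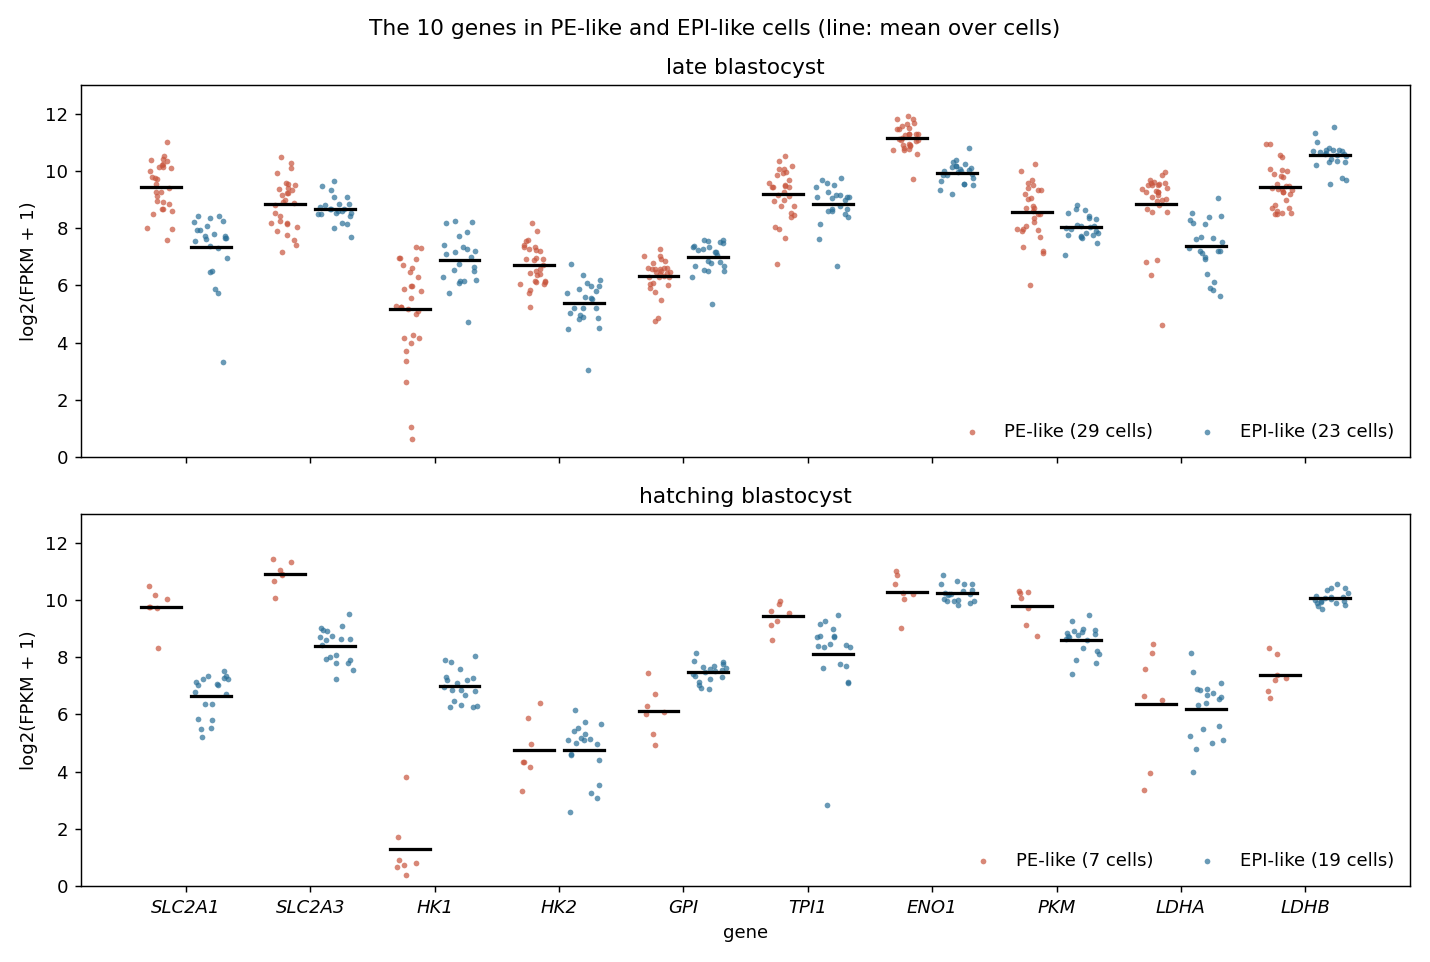
Level of the 10 genes (log2(FPKM + 1)) in each PE-like and EPI-like cell of the late (top) and hatching stage (bottom), with a line at the mean over cells. In hatching cells the classes do not overlap for SLC2A1, SLC2A3, HK1 and LDHB, and for HK1 the PE-like mean is 1.30 against an EPI-like mean of 7.01.

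Between hatching and late cells of a class, more of the 10 genes were called among PE-like than among EPI-like cells. The same held for all genes. Hatching minus late EPI-like, LDHA at -1.15 was the only one of the 10 called, with 8.34% of all genes called higher and 7.51% lower. LDHA had 14.8, 91.2 and 279.5 FPKM in hatching EPI-like cells, against 48.2, 156 and 528 FPKM in late EPI-like cells. It was at -0.57 among cells of low title number, where HK2 (-1.64) and SLC2A1 (-1.24) passed the size instead. Hatching minus late PE-like, SLC2A3 at 2.07 and PKM at 1.24 were higher, and HK1 at -3.86, LDHA at -2.47, LDHB at -2.06 and HK2 at -1.95 were lower. Of all genes, 11.8% were called higher and 30.1% lower, with a median over all genes of -0.43. The 7 hatching PE-like cells had a median of 5680 detected genes, against 6860 in the 29 late PE-like cells, and its part was not tested. LDHB was lower with no overlap of cells, which holds for 0.409% of all genes. PKM was at 0.97 among cells of low title number and missed the 2-fold size there. SLC2A1 differed by 0.30 here. With median-of-ratios scaling the middle of all genes was at -0.13, SLC2A1 at 0.88, HK2 at -1.39 and LDHB at -1.48, and the same 6 genes were called.

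Paired genes of like function divided their pool differently by stage and class. SLC2A1 made up a median of 7.34% of the summed FPKM of SLC2A1 and SLC2A3 in early, 18.8% in middle, 46.1% in late and 24.8% in hatching cells. It was above SLC2A3 in 21 of 29 late PE-like cells and in none of the 23 late EPI-like cells. In hatching cells it was above SLC2A3 in none of either class, with a median share of 34.3% in PE-like and 23% in EPI-like cells. HK1 made up 59.3%, 56.2%, 43.8% and 75.6% of the 2 hexokinases in the same 4 stages. By class, HK1 held 27.1% in late PE-like and 77.0% in late EPI-like cells, and 4.32% in hatching PE-like and 79.6% in hatching EPI-like cells. LDHA held 28.8% of the 2 lactate dehydrogenase genes in early, 44% in middle, 28.6% in late and 8.65% in hatching cells. LDHA held 47.1% in late PE-like and 10.2% in late EPI-like cells, and 36.6% in hatching PE-like and 6.85% in hatching EPI-like cells. LDHA exceeded LDHB in 14 of 39 middle, 12 of 29 late PE-like and 3 of 7 hatching PE-like cells, and in no EPI-like cell of either stage.

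**Figure D4:**
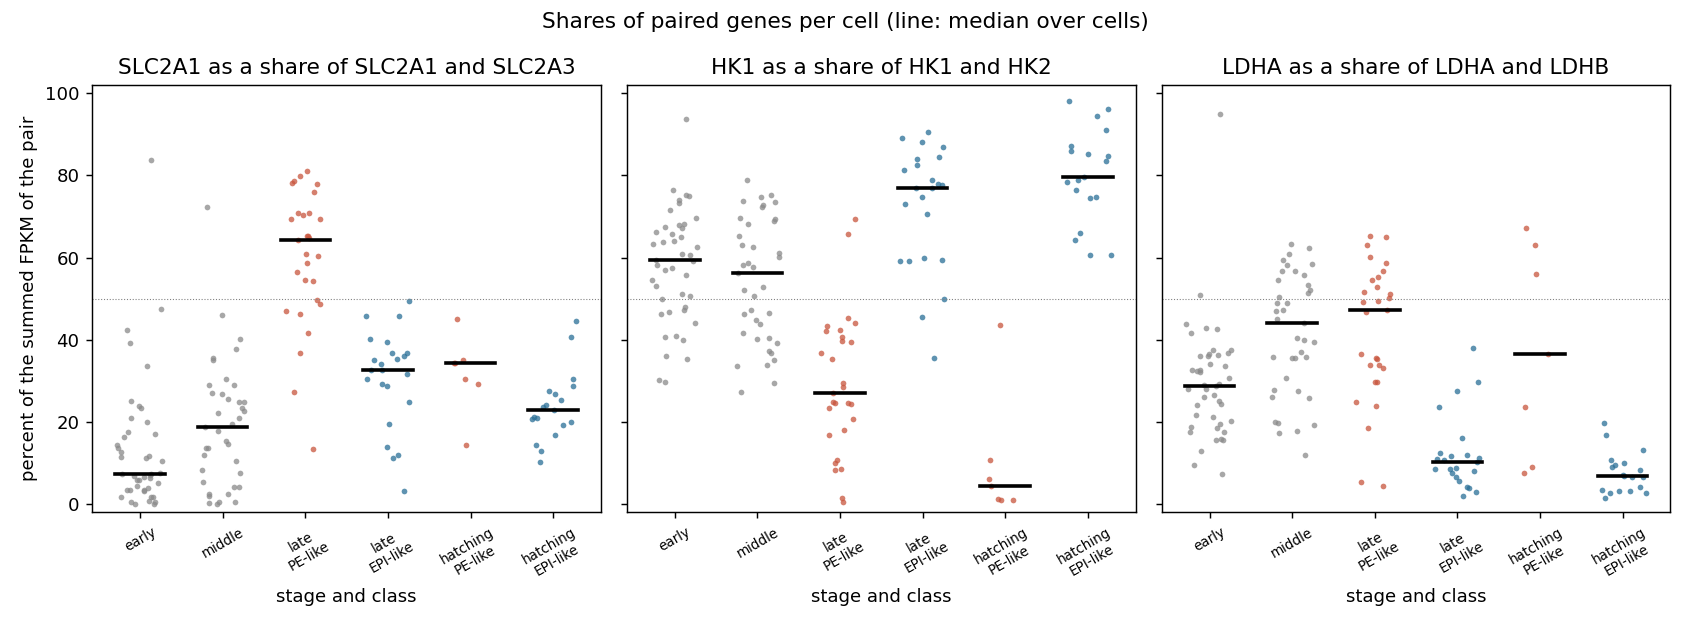
Share of the first gene in the summed FPKM of its pair in each cell (percent), by stage and class, with a line at the median over cells and a dotted line at 50%. HK1 holds a median of 4.32% in hatching PE-like and 79.6% in hatching EPI-like cells, and LDHA holds 47.1% in late PE-like and 10.2% in late EPI-like cells.

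Against NANOG and SOX17, correlations were taken over the cells of 1 stage and are descriptions, since the cells share an unknown number of embryos. In late cells (n = 52), NANOG went with HK1 at r 0.61 and LDHB at 0.54, and ran against SLC2A1 at -0.62, PKM at -0.60 and ENO1 at -0.57. Of the 9505 genes compared in late cells, 3.8% had an r of 0.5 or more with NANOG and 3.49% an r of -0.5 or less. SOX17 went with SLC2A1 at 0.72, ENO1 at 0.70 and HK2 at 0.52, and ran against LDHB at -0.67 and HK1 at -0.53, where 3.93% of genes passed 0.5 and 3.29% passed -0.5. NANOG and SOX17 themselves had an r of -0.79 in these cells, so their relations with the 10 genes are not separate.

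Inside the late classes the values differed from those over all late cells, although some kept their sign. With NANOG, HK1 had 0.40 in PE-like and 0.40 in EPI-like cells, and SLC2A1 had -0.23 and -0.34. Over the 29 PE-like cells, PKM had an r of -0.61 with NANOG, as large as over all late cells, and SLC2A1 had 0.43 and PKM 0.45 with SOX17. Over the same cells ENO1 had 0.16 with NANOG and 0.04 with SOX17, and LDHB had 0.13 with NANOG and -0.30 with SOX17. Over the 23 EPI-like cells, none of the 10 genes reached an r of 0.5 in size with either factor, and LDHB had -0.47 with NANOG, the opposite sign to that over all late cells. Hatching cells fell into separate classes by both factors, so no r over all of them is given. Of all 9998 genes compared there, 17.6% passed 0.5 and 7.65% passed -0.5 with NANOG, and 7.55% passed 0.5 and 18.1% passed -0.5 with SOX17.

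In early cells, NANOG went with LDHB at r 0.63 and TPI1 at 0.51 (n = 44), where 5.42% of 9281 genes had an r of 0.5 or more and 1.72% an r of -0.5 or less. None of the 10 passed with SOX17, at 0.0539% and 0.0108% of genes. Without E9, which held 6.45 FPKM of NANOG and 19.2 FPKM of LDHB, these values were -0.08 and 0.12, so both rest on that cell. In middle cells none of the 10 genes reached 0.5 with either factor, at a background of 0.174% high and 0.119% low of 9209 genes for NANOG, and 0.076% high and 0.217% low for SOX17. SOX17 reached 1 FPKM in 6 of 44 early and 10 of 39 middle cells, which limits any relation with it there.

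**Figure D5:**
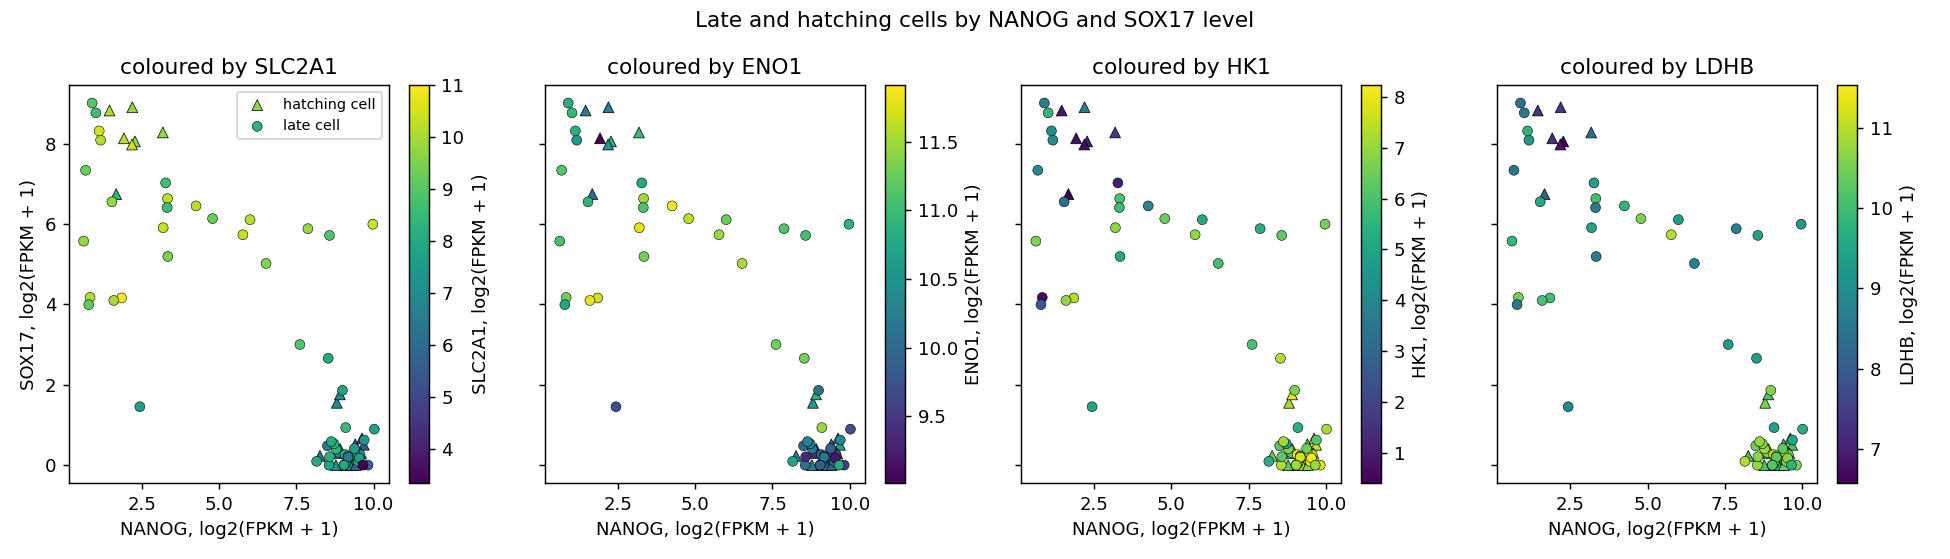
Late (circles) and hatching cells (triangles) by their NANOG and SOX17 levels, coloured in the panels by the level of SLC2A1, ENO1, HK1 and LDHB, all in log2(FPKM + 1). In late cells SOX17 goes with SLC2A1 at r 0.72 and against LDHB at -0.67, and the hatching cells high in SOX17 have at most 13 FPKM of HK1.

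The 10 genes were also set against each other from cell to cell. Of their 45 pairs, 14 had an r of 0.5 or more in early cells but 2 without E9, and 1 did in middle and 5 in late cells. No share over all gene pairs was taken, so these counts and those below do not set the 10 genes apart from other genes. The late pairs joined SLC2A1, HK2, ENO1 and LDHA, with SLC2A1 and ENO1 at 0.66 and SLC2A1 and HK2 at 0.65. Within late PE-like cells 1 pair reached 0.5, and within late EPI-like cells 1 pair did. The pair in EPI-like cells was SLC2A3 with LDHB at 0.66 (n = 23). Over all 26 hatching cells, which hold both classes, 7 pairs passed 0.5 and 10 passed -0.5, and within the 19 EPI-like ones 1 pair passed 0.5 and 1 passed -0.5.

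The pathway around the 10 genes was described with lists chosen with earlier results of these data known, of which 90 of 122 genes had a mean of at least 1 FPKM. The counts of called list genes are to be read against the 11.3% of all genes called higher and 16.2% called lower for hatching minus early, and the 14.2% and 33.7% between the hatching classes, PE-like minus EPI-like. Of 12 other glycolysis enzymes with that level, hatching minus early, 1 was higher (ENO3, the muscle enolase, 2.55) and 1 lower (LDHC, the testis lactate dehydrogenase, -1.87), with a list median of -0.22 against -0.12 over all genes. LDHC reached 1 FPKM in no hatching cell, against 23 of 44 early cells. PFKL, the liver-type phosphofructokinase, had 1.08 for middle minus early and -1.22 for late minus middle. In hatching cells, PE-like minus EPI-like, 1 of the 12 was higher, PFKL at 1.24, and 4 were lower, a share near the 33.7% of all genes. The 4 were ENO3 at -4.13 and, chosen after their values were seen, PGK1 at -1.93, PGAM1 at -1.72 and GAPDH at -1.53. GAPDH, the dehydrogenase of the chain, had a mean of 10.52 ± 0.13 in the 7 PE-like and 12.05 ± 0.24 in the 19 EPI-like cells.

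Of 7 lactate and pyruvate carriers, 1 was called higher and none lower hatching minus early, with a list median of 0.55 against -0.12 over all genes. The gene called was MPC2, and MPC1 (0.10) and BSG (0.08, chosen after its value was seen) differed little. MPC2, a subunit of the mitochondrial pyruvate carrier, had a mean of 5.18 ± 0.66 in hatching and 2.91 ± 1.05 in early cells, a difference of 2.27. SLC16A3, a lactate exporter, had 2.14 in hatching PE-like minus EPI-like cells. Of 11 genes of pyruvate dehydrogenase and its regulators, 5 were lower and none higher hatching minus early, where 16.2% of all genes were lower. They included PDP2, a phosphatase that activates the complex, at -3.52, PDHA1, a catalytic subunit, at -2.29, DLD at -1.25 and PDHX at -1.22. PDP2 had -3.31 for late minus middle. Of 19 citric acid cycle genes, 2 were higher (SDHD at 1.64 and IDH1 at 1.21) and 2 lower (SUCLA2 at -1.35 and SDHA at -1.21) hatching minus early, and 3 were higher and 8 lower in hatching PE-like minus EPI-like cells, with a median of -0.88 against -0.45 over all genes.

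Of 3 gluconeogenesis genes, PC at 2.06 and PCK2 at 2.05 were higher hatching minus early. PCK2 was at 1 FPKM or more in no hatching PE-like cell and in 12 of 19 hatching EPI-like cells. Of 8 pentose phosphate genes none was called higher hatching minus early, and RPIA, the ribose 5-phosphate isomerase, was lower at -1.33. Of 8 glycogen genes, 1 was higher (UGP2 at 1.48) and 2 lower (PGM1 at -1.56 and PGM2 at -1.42) hatching minus early. PYGL, the liver glycogen phosphorylase, had -2.20 in late and -4.07 in hatching PE-like minus EPI-like cells. Of 3 enzymes that make or remove fructose 2,6-bisphosphate, none was called hatching minus early, and of 3 other sugar carriers SLC2A8 at -1.35 was lower.

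Of 13 hypoxia response genes, 3 were higher and 1 lower hatching minus early, where 11.3% of all genes were higher and 16.2% lower. P4HA1, a collagen prolyl hydroxylase subunit, was at 1.83, HIF1A, the oxygen-regulated transcription factor subunit, at 1.66 and BNIP3L at 1.38, whereas EGLN3, an oxygen-sensing prolyl hydroxylase, was at -3.69. EGLN3 had a mean of 1.15 ± 1.54 in hatching and 4.72 ± 2.1 in late cells. ADM, which encodes the peptide adrenomedullin, had a mean of 6.91 ± 1.39 in hatching PE-like cells, all 7 at 1 FPKM or more. In hatching EPI-like cells its mean was 0.16 ± 0.18, and none reached 1 FPKM. The list went both ways between these classes, where 14.2% of all genes were higher and 33.7% lower. PE-like minus EPI-like, ADM at 6.76, P4HA1 at 1.98 and HIF1A at 1.65 were called higher. ANKRD37 at -2.71, NDRG1 at -2.09, BNIP3 at -1.60 and CA9 at -1.56 were called lower. Of 3 glucose-sensing genes, TXNIP, a glucose-induced arrestin that limits glucose uptake, was lower at -2.06 hatching minus early. It had 1.42 in late and 1.42 in hatching PE-like minus EPI-like cells.

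The genes whose pattern over the 161 cells was most like the mean of the 10 standardised genes were ATP5B at r 0.69, AAMP at 0.68, CANX at 0.66, EZR at 0.64, TBRG4 at 0.64 and TXNRD1 at 0.61. The least alike were PRAMEF12 at -0.60, CSH2 at -0.60 and OSR1 at -0.60. The last 3 values rest on E9, without which they were -0.22, -0.18 and -0.14. The first 6 were also lower without that cell, at 0.48, 0.51, 0.51, 0.48, 0.50 and 0.50 in the order given. Without E9, DNAJC11 at 0.54, ANXA11 at 0.52 and UAP1 at 0.52 led, CANX (0.51) and AAMP (0.51) kept a place among the first 6, and RPS18 at -0.56, SHFM1 at -0.55 and MDK at -0.53 were least alike.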

How the data were processed

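Single-cell RNA sequencing of 161 inner cells was analysed from the values the authors deposited, FPKM for 16049 gene symbols. Per the labels' protocols, PCR-amplified cDNA of each cell gave paired reads of 150 bp. HTSeq, DESeq2, TopHat2 2.1.0 and FastQC stand in the submitters' processing notes, without a role. The genome build is not given in the sources used here, so no coordinates or sequences are printed. For 13857 of 13857 genes above 0 in 2 or more cells, values were whole multiples of 1 read (relative tolerance 1e-08 or absolute tolerance 1e-05), which gave the read depths. These PCR reads carry no molecular identifiers.

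Cells were grouped by stage. Levels are means over cells of log2(FPKM + 1), which understates differences of low genes, and a difference of 1 or more was called among genes with a mean FPKM of at least 1. No test was made, since each stage is 1 sample. Correlations are Pearson's r on the same scale. The 10 genes, the gene lists, the markers and the comparisons were chosen with earlier results of these data known.

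Cell classes came from the 1000 most variable genes of a stage without listed genes and markers, 10 principal components and Ward clustering into 2 to 4 clusters by silhouette. A cluster of at least 5 cells was named when it raised at least 3 detected markers and at least 50% of the markers of 1 class by 1 log2 unit, more than of other classes, with no other class ahead among its 10 leading genes. This rule was set after the clusters were seen. No doublet caller was run, since each library was 1 picked cell.

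From each list, genes were named by size: up to 4 by hatching minus early and up to 2 by each neighbouring step, besides the 6 most and 3 least alike genes. Others were chosen after their values were seen, class differences included. Some list genes are not reported here. The alternatives were other pseudocounts, scalings, averages, filters, clusterings and ranges of title numbers, and leaving out E9 or the 7 cells titled HSM or HSL. The software was Python 3.11.15 with scikit-learn 1.9.0, matplotlib 3.10.9, scipy 1.17.1, numpy 2.4.6 and pandas 2.3.3.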

Additional observations from a re-analysis of the deposited data

How the results depend on the processing

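Counts of called genes were small, and some moved with the setting. For middle minus early, 2 genes were called higher, 1 with a pseudocount of 10, with the log2 of the mean FPKM and without the cells titled HSM or HSL, 4 with every cell scaled to the same summed FPKM, 5 within the low and 0 within the high title numbers. Late minus middle, 2 were called lower, 0 with the median over cells and with the log2 of the mean FPKM, and 1 within the low and 1 within the high title numbers. Hatching minus late, 1 was higher within the high numbers, against 0. Late PE-like minus EPI-like, 2 were lower, 1 within the low numbers and 1 with classes by marker level. Hatching minus late EPI-like, 1 was lower, 2 within the low numbers and 0 with 20 principal components. Hatching minus late PE-like, 2 were higher, 1 within the low numbers. Relations with NANOG or SOX17 at r of 0.5 or more in size numbered 24 of 80, 36 within the low and 12 within the high numbers, and 17 by Spearman's rho. Of the 24, 6 with NANOG and 6 with SOX17 were taken over all hatching cells, which hold both classes. A further 2, with NANOG in early cells, rest on E9. Shares of all genes past 0.5 are given by stage above and were not taken for the other settings. The cause of the moves with the setting was not tested for any count. The other 163 counts and shares stayed within 1.5 times their value or moved by less than the spread.

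Of single differences, 765 moved by less than the spread, 13 moved, and 2 that had been called changed sign: SLC2A1 for middle minus early to -0.32 within the high numbers, and HK1 for hatching minus early to 0.0077 with the median over cells. Differences under 1 log2 unit also changed sign in places, among them HK1 for hatching minus late (-0.45), at 1.21 within the high numbers and 0.53 with the median over cells. LDHB there (-0.58) was at 0.41 within the high numbers. Within the low numbers, SLC2A3 for hatching minus early (-0.06) was at 0.98, and LDHA for hatching PE-like minus EPI-like (0.17) at -0.58. Of the relations, 375 moved little, 95 moved further and 10 of size 0.5 or more changed sign. LDHB with NANOG in early cells reversed to -0.079 by Spearman's rho, -0.17 within the high numbers and -0.084 without E9. The rest reversed within the high hatching numbers, which hold EPI-like cells alone: SLC2A3 (0.46), GPI (-0.25), PKM (0.086) and LDHB (-0.28) with NANOG, and SLC2A1 (-0.52), PKM (-0.28) and LDHB (0.017) with SOX17.

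No paired analysis was possible because title numbers name single cells and no test was made. The hatching PE-like class had 7 cells under 5 and 20 principal components and by marker level, and the late one had 29, 32 and 24 cells.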
